A study of Mus musculus with 6 samples.

Results

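The 46 genes described here encode the machinery that copies DNA in S phase: the proteins that license and fire replication origins, the polymerases, clamp and ligase of the replication fork, the enzymes that supply deoxynucleotides, and the factors that rebuild chromatin and its methylation behind the fork. The list follows this textbook process, but it was chosen with earlier results of these data known. Its names were looked up among the 55367 gene names of the count table, where all 46 were found. All 46 also passed the filter on low counts and stood among the 16976 genes tested, with 64 to 8525 counts per member and library. RNA was measured by RNA-seq in cultures of cortical cells from mouse pups of postnatal day 1 after 2 days in vitro. There were 3 wild-type (WT) and 3 Fmr1-knockout (Fmr1-KO) libraries. Both genotypes had the C57BL/6J background, and neither received a drug or other agent. Fmr1-KO mice model fragile X syndrome, which results from loss of the RNA-binding protein FMRP. The mice lack FMRP in all cells and throughout development. The study measured these cultures to ask whether targets of nonsense-mediated mRNA decay, a pathway that degrades particular mRNAs, were at lower levels without FMRP.

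The cortex had been dissociated with papain, strained to remove vessels and clumps, and depleted of ACSA-2-positive astrocytes and of myelin with magnetic beads before plating. The methods name no inhibitor of cell division and, apart from these depletions, no step aimed at dividing cells. Whether the beads also took dividing precursors is not stated. The labels named no litter, sex or culture date for any library, so P values measure the spread between these samples. In bulk RNA, fewer or more cells of a type and less or more RNA per cell cannot be told apart.

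DNA is replicated once per cell cycle. In G1 the origin recognition complex (ORC), with Cdc6 and Cdt1, loads the ring-shaped MCM helicase onto origins, and in S phase Cdc45 and the GINS complex join the ring and switch it on. Transcription of many of these genes is controlled by E2F factors, which the retinoblastoma proteins hold back until a cell commits to divide. Neurons have left the cell cycle, so in the newborn cortex replication genes are expressed mainly by the remaining neural progenitors, glial precursors and other dividing cells.

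The 6 libraries held 30348556 to 35126207 counts, and the spread within a genotype exceeded that of counting alone (chi-square divided by its degrees of freedom, 2.16 for WT, 2.29 for Fmr1-KO). The biological coefficient of variation over all genes was 3.22%. Fmr1, the targeted gene, was at 113 ± 4.50 CPM (read counts scaled to a common library size, TMM-adjusted; SD, n = 3) in WT and at 57.4 ± 3.67 CPM in Fmr1-KO, so reads of the gene were still counted in the mutant. Its 3 Fmr1-KO libraries lay below the 3 WT libraries. Among all tested genes, 3506 were called higher and 3725 lower in Fmr1-KO at an adjusted P under 0.05 by edgeR's quasi-likelihood test.

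The replication genes were higher in Fmr1-KO almost without exception. edgeR called 45 of 46 higher and 0 lower, where 20.7% of all tested genes were called higher and 21.9% lower. No member was lower at an unadjusted P under 0.05 either, since 0 members had a log2 fold change below 0, and DESeq2 also called 0 lower. In 45 of 46 members every Fmr1-KO library lay above every WT library, a pattern seen in 25.4% of tested genes. The median log2 fold change of the members was 0.51, a level 42.7% higher in Fmr1-KO, beside a median of 0.01 over all tested genes. Single members ran from 0.09 to 0.81, while the 10th and 90th percentiles of all tested genes were -0.42 and 0.38. The changes all pointed the same way but were modest in size. A total of 25 members exceeded 0.5 on the log2 scale and 0 exceeded 1. When edgeR's glmTreat asked for more than a 1.2-fold difference, 34 members were still called higher, against 5.20% of all tested genes.

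Together the 46 genes took up 0.186% of the counts of WT replicate 1 (95% Wilson interval 0.185 to 0.187), 0.182% of replicate 2 (0.180 to 0.183) and 0.180% of replicate 3 (0.178 to 0.181). In Fmr1-KO the shares were 0.260% (0.258 to 0.262), 0.253% (0.251 to 0.255) and 0.260% (0.258 to 0.262). These intervals cover counting error only. The lowest Fmr1-KO share exceeded the highest WT share, and the mean share was 1.41 times higher in Fmr1-KO. Replicates were close for single genes as well, with a median coefficient of variation over the members of 3.86% in WT and 2.85% in Fmr1-KO.

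**Figure D1:**
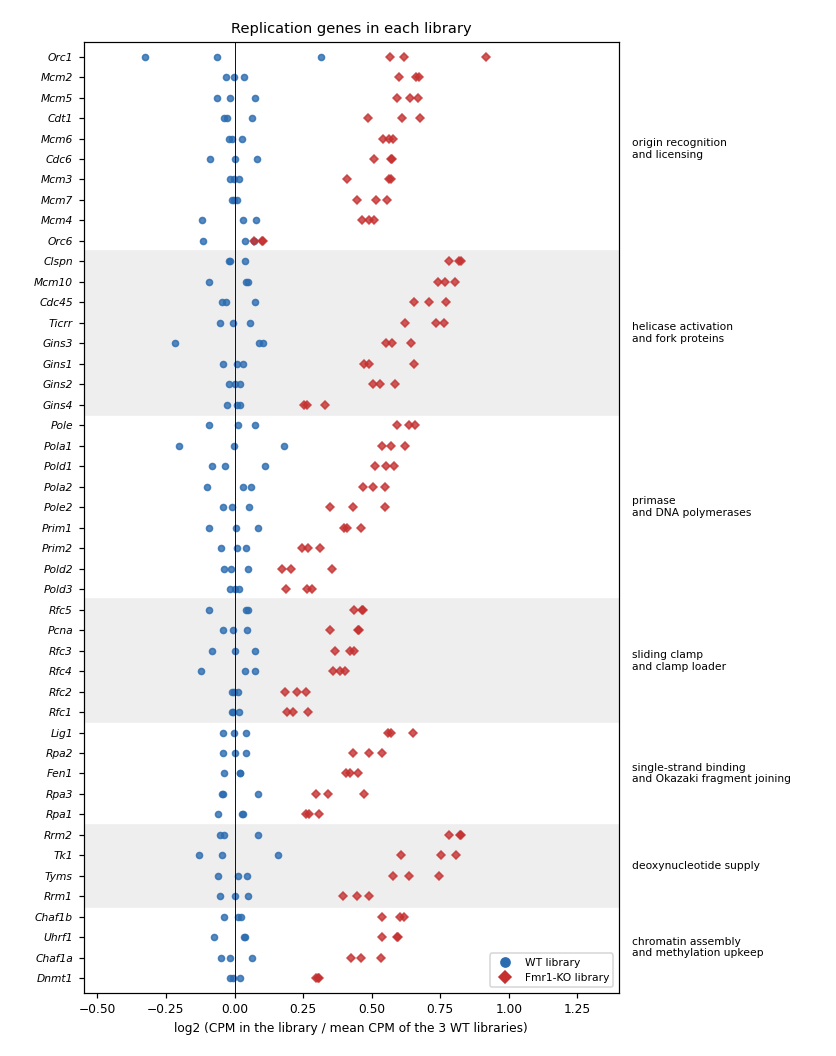
Each row is 1 of the 46 genes, grouped by role, and each symbol is 1 library; the horizontal axis is the log2 ratio of its CPM to the mean CPM of the 3 WT libraries. Circles (WT) scatter about 0 and diamonds (Fmr1-KO) lie to their right for every gene except Orc6, where an Fmr1-KO library falls below a WT library; Orc1 has the widest scatter.

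The DNA in front of the members was examined for words that cell cycle factors are known to bind. RefSeq promoter windows (GRCm38.p6, from 250 bases before to 50 after an annotated start) were at hand for 39 of the 46 genes. The E2F-type words TTTCCCGC, TTTGGCGC, TTTCGCGC and TTTGCCGC were searched on both strands. At least 1 of them stood in the windows of 17 of 39 members (43.6%), compared with 4.35% of 12353 tested genes and 2.60% of all 27025 genes in the table. Counted per window of 300 bases rather than per gene, the shares were 36.2% of member windows, 3.58% of windows of tested genes and 2.26% of all windows. The first 3 words were found in 7, 7 and 9 members, and TTTGCCGC in 0. Base composition of the windows was similar, with a median GC content of 58.3% in members and 60.3% in tested genes. A match is a string of letters and was not tested for binding. Many genes of this process are known to be under E2F control, so these shares describe the list rather than the difference between genotypes.

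The stretches of 170 bases that end just before the annotated start are printed for 5 genes, 5′ to 3′ on the strand of the gene, because these genes sit at origins and at the start of each new strand and rose both with and without a word. None of these bases lies in an exon of GENCODE M21. Capitals mark the E2F-type words. Mcm6, a helicase subunit, is read from chr1:128359706-128359875 on the minus strand, and 2 of its 3 words overlap on opposite strands.
Mcm6: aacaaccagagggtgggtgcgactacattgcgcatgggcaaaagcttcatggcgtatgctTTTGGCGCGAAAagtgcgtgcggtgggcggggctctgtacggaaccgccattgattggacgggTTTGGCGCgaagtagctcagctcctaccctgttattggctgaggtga
Mcm5, another subunit of the same ring, is read from chr8:75109339-75109508 on the plus strand, and its pair of words overlaps in the same way.
Mcm5: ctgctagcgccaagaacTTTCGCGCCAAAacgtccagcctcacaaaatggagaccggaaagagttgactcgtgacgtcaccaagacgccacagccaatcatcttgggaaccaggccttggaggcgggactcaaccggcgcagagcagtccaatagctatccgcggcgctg
Pola1, the catalytic subunit of polymerase alpha, is read from chrX:93632156-93632325 on the minus strand.
Pola1: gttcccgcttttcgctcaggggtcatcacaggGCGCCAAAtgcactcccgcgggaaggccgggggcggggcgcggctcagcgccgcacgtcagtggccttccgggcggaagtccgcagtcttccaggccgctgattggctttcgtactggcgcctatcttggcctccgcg
Mcm2 and Mcm10 are given for contrast, since no searched E2F-type word lies in their windows. Mcm2 is read from chr6:88898781-88898950 on the minus strand.
Mcm2: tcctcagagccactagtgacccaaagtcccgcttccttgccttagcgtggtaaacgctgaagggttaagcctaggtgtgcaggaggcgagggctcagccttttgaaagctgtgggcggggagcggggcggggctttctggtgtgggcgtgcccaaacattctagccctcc
Mcm10, which helps to switch on the loaded helicase, is read from chr2:5012792-5012961 on the minus strand.
Mcm10: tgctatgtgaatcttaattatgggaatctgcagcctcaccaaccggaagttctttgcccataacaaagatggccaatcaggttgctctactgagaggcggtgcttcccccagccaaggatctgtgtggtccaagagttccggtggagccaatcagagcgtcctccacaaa
In these libraries the log2 fold changes were 0.56 for Mcm6, 0.63 for Mcm5 and 0.58 for Pola1, against 0.65 for Mcm2 and 0.77 for Mcm10. The median over the 17 members with a word was 0.56 (0.24 to 0.81), and over the 22 without it was 0.46 (0.09 to 0.81), so the ranges overlapped almost entirely.

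Of the 24 E2F-type words, 13 began before the annotated start and 11 at or after it, and 10 members had at least 1 before it. The CCAAT word, bound by NF-Y, was found in 66.7% of members and 42.6% of tested genes. The CHR word TTTGAA, the element of genes used in G2 and mitosis, was found in 15.4% of members and 14.4% of tested genes. Of 53 other replication genes, 42 had a window, with an E2F-type word in 21.4%, the CCAAT word in 38.1% and the CHR word in 23.8%. Of 25 mitosis genes, 22 had a window, with an E2F-type word in 4.55%, the CCAAT word in 81.8% and the CHR word in 77.3%. No word of one class contains a word of another, although neighbouring words can share end bases.

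**Figure D2:**
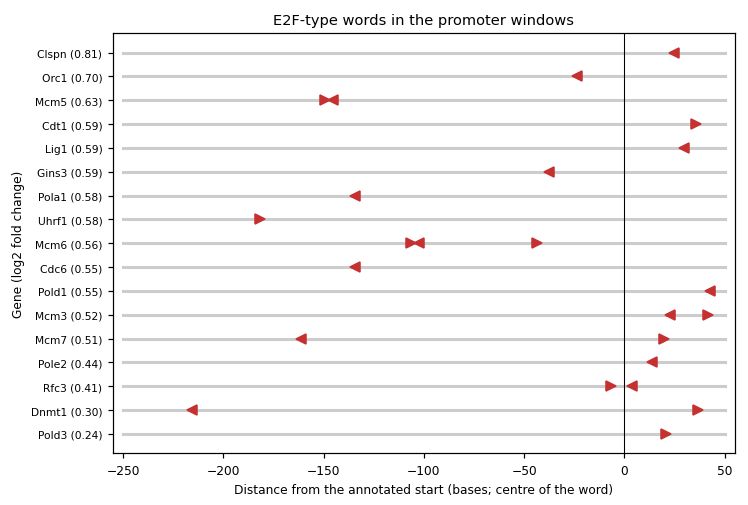
For the 17 members with an E2F-type word, ordered by log2 fold change (in parentheses), the grey line is the window from 250 bases before to 50 after the annotated start (vertical line), and each triangle is a word pointing along its strand. The 24 words lie on both sides of the start, 13 of them beginning before it.

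Licensing genes rose in 9 of 10 cases, with a median log2 fold change of 0.56. The 6 subunits of the MCM ring stayed close together, from 0.49 for Mcm4 to 0.65 for Mcm2. Mcm7 was at 89.0, 89.3 and 90.2 CPM in WT and at 128, 122 and 131 CPM in Fmr1-KO. Mcm6 was at 81.9, 79.3 and 79.8 CPM in WT and at 120.0, 117 and 119 CPM in Fmr1-KO. For Mcm2 the WT libraries gave 64.3, 61.5 and 62.7 CPM and the Fmr1-KO libraries 99.4, 95.3 and 100.1 CPM. In all 3 genes the genotypes were clearly apart, and the second Fmr1-KO library was the lowest of its group. The fold changes were 1.42 for Mcm7 (log2 0.51, SE 0.03), 1.47 for Mcm6 (0.56, SE 0.03) and 1.56 for Mcm2 (0.65, SE 0.04), with edgeR adjusted P values of 1.85e-10, 1.99e-11 and 8.66e-12. Mcm3 (0.52), Mcm5 (0.63) and Mcm4 completed the ring.

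The loaders of the ring were less abundant and rose to a similar extent. Cdc6, the ATPase that opens the way for the ring, changed by 0.55 and its partner Cdt1 by 0.59 on the log2 scale. Geminin (Gmnn), which binds Cdt1 and blocks loading a second time, changed by 0.59 as well, and the ratio of Cdt1 to Gmnn, each per kilobase of exon, was 0.925 ± 0.122 in WT and 0.920 ± 0.0174 in Fmr1-KO (SD, n = 3). This ratio differed by less than the spread between WT libraries.

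Orc1 and Orc6, the ORC subunits among the members, parted company. Orc1, which is made anew in each cycle, was the scarcest member at 2.30, 2.99 and 1.92 CPM in WT and 3.69, 4.54 and 3.56 CPM in Fmr1-KO. Its groups did not overlap, and the log2 fold change was 0.70 (SE 0.15, edgeR adjusted P = 7.96e-04). Orc6 (GRCm38 chromosome 8, 85299632 to 85308278, plus strand) was at 41.3, 36.2 and 40.3 CPM in WT and at 42.2, 42.1 and 41.2 CPM in Fmr1-KO. The third Fmr1-KO library lay just below the first WT library, and the log2 fold change of 0.09 (SE 0.05) did not pass edgeR's test (adjusted P = 0.140). Without the second WT library, the lowest of its group, the difference was 0.04 (adjusted P = 0.580), and over the 6 libraries left out in turn it ran from 0.04 to 0.13. The ORC subunits outside the list resembled Orc6 in size of change. Orc2 and Orc3 were called higher at 0.12 and 0.13, while Orc4 and Orc5 were at 0.05 and 0.06 and were not called (adjusted P = 0.373 and 0.410). Orc2 lost its call when WT replicate 2 was left out (0.10, adjusted P = 0.0740).

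Genes that activate the helicase or ride with the fork had a median of 0.65, and 8 of 8 were called. Claspin (Clspn; GRCm38 chromosome 4, 126556935 to 126593903, plus strand), the fork protein that relays the replication checkpoint, was at 21.4, 22.3 and 21.4 CPM in WT and 37.3, 38.3 and 38.5 CPM in Fmr1-KO. Mcm10 was at 14.5, 14.6 and 13.2 CPM in WT and 24.6, 23.6 and 24.0 CPM in Fmr1-KO. Both rose by about as much as any member, by 1.75-fold for Clspn (log2 0.81, SE 0.05, edgeR adjusted P = 2.43e-11) and 1.71-fold for Mcm10 (0.77, SE 0.06, adjusted P = 1.36e-09). Cdc45, a component of the active helicase, and Ticrr (treslin), which helps to recruit it, followed at 0.71 each.

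Within GINS, a complex of 4 different proteins, the transcripts did not move by equal amounts. Gins1, Gins2 and Gins3 lay between 0.54 and 0.59, but Gins4 was at 0.28 (SE 0.05). Gins4 had 19.5, 20.1 and 19.99 CPM in WT and 23.9, 23.7 and 24.98 CPM in Fmr1-KO, so its groups were still apart. It was also the most abundant of the 4 in WT, at a mean of 19.9 CPM where the lowest, Gins3, was at 6.33 CPM. Per kilobase of exon it was at 14.7 RPKM in WT, and the lowest was then Gins2 at 2.32 RPKM.

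The 9 primase and polymerase genes were all called higher, with a median of 0.44. Catalytic subunits of the 3 replicative polymerases led. Pole, of the leading-strand polymerase epsilon, was at 34.4, 30.7 and 33.0 CPM in WT and 51.6, 50.8 and 49.3 CPM in Fmr1-KO. Pold1, of the lagging-strand polymerase delta, was at 25.6, 28.3 and 24.8 CPM in WT and 39.2, 38.5 and 37.4 CPM in Fmr1-KO. The genotypes did not overlap for either gene. Pole rose by 1.54-fold (log2 0.63, SE 0.05, edgeR adjusted P = 6.31e-10) and Pold1 by 1.46-fold (0.55, SE 0.05, adjusted P = 3.04e-08). Pola1 rose by 0.58 on the log2 scale and Pola2, its regulatory partner, by 0.51.

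Accessory subunits changed less. Pold3 was at 43.1, 43.5 and 42.5 CPM in WT and 52.3, 51.6 and 49.1 CPM in Fmr1-KO, with a log2 fold change of 0.24 (SE 0.04), and Pold2 was at 0.25. The smallest delta subunit, Pold4, was at -0.29 (SE 0.12) and was not called (adjusted P = 0.0593). For polymerase epsilon, Pole2 rose by 0.44 and Pole3, a histone-fold subunit, by 0.24, while Pole4 was at 0.07 and was not called (adjusted P = 0.290). The primase genes Prim1, the catalytic subunit, and Prim2, the large subunit, were at 0.42 and 0.27. Pola1 was the only member on the X chromosome.

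The sliding clamp and its loader had the lowest median of any role, 0.40, with 6 of 6 called higher. Pcna, the ring that tethers polymerases to DNA, was at 88.5, 83.2 and 85.3 CPM in WT and 117, 109 and 117 CPM in Fmr1-KO. These groups were well apart, and the fold change was 1.34 (log2 0.42, SE 0.04, edgeR adjusted P = 9.73e-09). Rfc1, the large subunit of the loader, was at 67.4, 68.5 and 67.2 CPM in WT and 77.3, 81.6 and 78.5 CPM in Fmr1-KO. Rfc2 was at 52.3, 51.8 and 51.5 CPM in WT and 60.7, 59.0 and 62.2 CPM in Fmr1-KO. Rfc1 and Rfc2 thus had small but repeatable differences of 0.22 and 0.23 (SE 0.04 each), while the other loader subunits Rfc3, Rfc4 and Rfc5 were at 0.41, 0.38 and 0.46. Rfc2, like Rfc3, Rfc4 and Rfc5, also serves in alternative clamp loaders. The table listed 3 pseudogenes named after Pcna and Tyms, none with more than 9 counts in a library.

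Proteins that coat single-stranded DNA or join Okazaki fragments were called higher in 5 of 5 cases, with a median of 0.43. Rpa1, the large subunit of replication protein A, was at 105, 105 and 98.3 CPM in WT and 127, 124 and 123 CPM in Fmr1-KO. Lig1, the ligase that seals the fragments, was at 55.1, 52.1 and 53.6 CPM in WT and 79.5, 79.0 and 84.1 CPM in Fmr1-KO. Fen1, the nuclease that trims their ends, was at 26.6, 26.6 and 25.5 CPM in WT and 35.2, 34.8 and 35.8 CPM in Fmr1-KO. No Fmr1-KO library of these genes reached down into the WT range. Lig1 rose most, by 1.51-fold (log2 0.59, SE 0.04, edgeR adjusted P = 1.01e-10), Fen1 by 1.34-fold (0.43, SE 0.05) and Rpa1 by 1.21-fold (0.28, SE 0.03). Rpa2 and Rpa3 were at 0.49 and 0.37. Replication protein A also acts in repair and recombination outside S phase.

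Deoxynucleotide supply had the highest median of the 7 roles, 0.69, and 4 of 4 genes were called. Rrm2, the S-phase small subunit of ribonucleotide reductase (GRCm38 chromosome 12, 24708241 to 24714146, plus strand), was at 96.0, 88.2 and 87.3 CPM in WT and at 160.3, 156 and 160.1 CPM in Fmr1-KO. Rrm1, the large subunit, was at 140, 131 and 136 CPM in WT and 184, 178 and 190.3 CPM in Fmr1-KO. Thymidylate synthase (Tyms) was at 15.9, 14.8 and 15.5 CPM in WT and 24.0, 23.0 and 25.8 CPM in Fmr1-KO. All 3 were separated by genotype. Rrm2 had the largest log2 fold change and the smallest adjusted P of the members, 0.81 (SE 0.04, 1.75-fold) and 3.56e-13 by edgeR. Tyms rose by 0.66, Rrm1 by 0.45, and Tk1, the cytosolic thymidine kinase of cycling cells, by 0.72.

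Relatives that work outside S phase gave a within-library contrast. Rrm2b, the small subunit used in resting cells and after damage, was at -0.06 and was not called (adjusted P = 0.489). The ratio of Rrm2 to Rrm2b per kilobase of exon was 18.6, 16.1 and 17.4 in WT and 29.8, 31.2 and 34.5 in Fmr1-KO, so the groups did not overlap. Tk2, the mitochondrial kinase, was at 0.07 and was not called (adjusted P = 0.288), and the ratio of Tk1 to Tk2 went from 0.259 ± 0.0161 in WT to 0.409 ± 0.0199 in Fmr1-KO (SD, n = 3). Rrm2 also rose relative to its own partner, with a ratio of Rrm2 to Rrm1 per kilobase of exon of 2.66 ± 0.0864 in WT and 3.42 ± 0.0704 in Fmr1-KO. Without division by exon length Rrm1 was the more abundant, at a mean of 135 CPM against 90.5 CPM for Rrm2 in WT. In Fmr1-KO these means were 184 and 159 CPM.

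Chromatin assembly and methylation upkeep had a median of 0.52 with 4 of 4 called. Dnmt1, which copies CpG methylation onto the new strand, was the most abundant member in CPM, at 202, 199 and 197 in WT and 247, 246 and 245 in Fmr1-KO. Uhrf1, which brings Dnmt1 to half-methylated sites, was at 59.6, 59.5 and 55.1 CPM in WT and 87.5, 84.3 and 87.7 CPM in Fmr1-KO. Chaf1a, a subunit of the histone chaperone CAF-1, had 1256, 1103 and 1140 counts in WT and 1626, 1418 and 1655 counts in Fmr1-KO. The Dnmt1 libraries of a genotype were close together, and the change was among the smaller ones, 1.23-fold (log2 0.30, SE 0.03, edgeR adjusted P = 2.61e-08). Uhrf1 rose by 1.49-fold (0.58, SE 0.04), Chaf1a by 1.39-fold (0.47, SE 0.05) and Chaf1b by 50.2% (0.59, SE 0.05).

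The de novo methylation genes were Dnmt3a and Dnmt3b. Dnmt3a, which is abundant in young neurons, was the only called decrease among the other replication and methylation genes, at -0.17 (SE 0.03, edgeR adjusted P = 9.41e-05), and Dnmt3b was at 0.14 and was not called (adjusted P = 0.357). The ratio of Dnmt1 to Dnmt3a per kilobase of exon was 1.88 ± 0.0280 in WT and 2.61 ± 0.0370 in Fmr1-KO (SD, n = 3). Uhrf2, a relative of Uhrf1, rose by 0.16, and the ratio of Uhrf1 to Uhrf2 was 2.04 ± 0.0778 in WT and 2.72 ± 0.107 in Fmr1-KO. Cdc6 and Dnmt1 were the 2 members on the study's list of decay targets, which it derived in another cell line, and both rose. Over its whole list, the study reported generally lower target levels in these Fmr1-KO cultures. The values given here are mRNA levels alone. The study also set targets against their unspliced pre-mRNA, and described some whose stronger decay was hidden by increased synthesis.

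**Figure D3:**
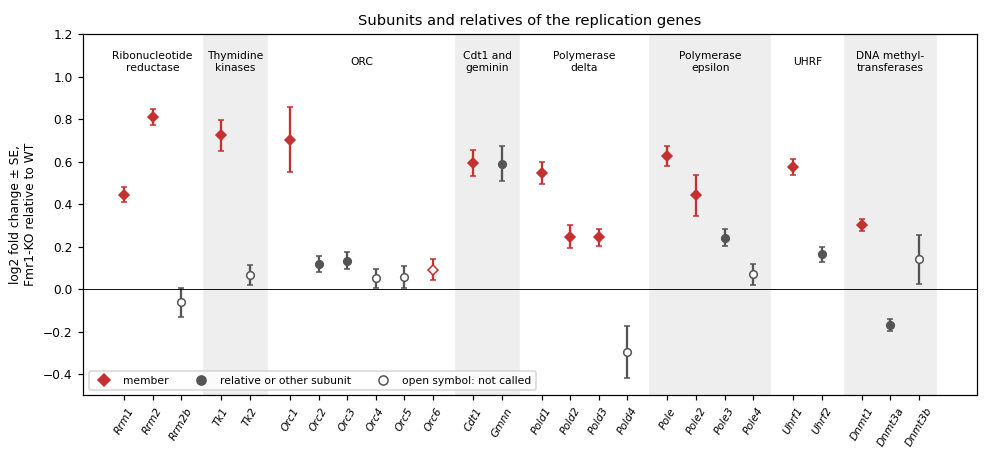
Log2 fold change in Fmr1-KO relative to WT ± SE (edgeR) for members (diamonds) and for relatives or other subunits of the same complexes (circles); open symbols did not pass the test. Rrm2, Tk1, Orc1, Pold1, Pole, Uhrf1 and Dnmt1 stand above their relatives, while Cdt1 (0.59) and geminin (0.59) are level.

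In level per kilobase of exon the members spanned a wide range. WT means ran from 0.691 RPKM for Orc1 to 35.7 RPKM for Pcna, with a median of 7.79 RPKM, and the Fmr1-KO median was 9.72 RPKM. Rrm2 (32.7 ± 1.72 RPKM, SD, n = 3) was next to Pcna (35.7 ± 1.11) in WT, but reached 57.3 ± 0.928 RPKM in Fmr1-KO, where Pcna was at 47.7 ± 1.95. By RPKM their order was thus exchanged between genotypes. In mean CPM Rrm2 was above Pcna in both, at 90.5 against 85.7 in WT and 159 against 114 in Fmr1-KO. Dnmt1 and Mcm7 followed in WT at 27.0 and 20.2 RPKM, and Ticrr and Orc1 were at the bottom. The log2 fold change was only weakly related to level or length across genes, with Spearman's rho of -0.298 to mean WT CPM and 0.233 to exon length (46 genes of the same 6 libraries, which are not independent replicates).

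**Figure D4:**
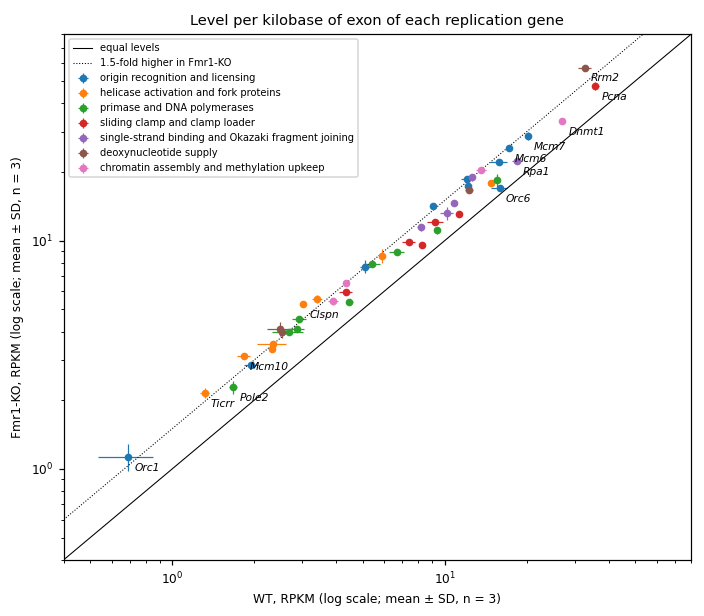
Mean RPKM ± SD (n = 3) of each member in WT (horizontal) and Fmr1-KO (vertical), both on log scales and coloured by role, with lines at equal levels and at 1.5-fold higher in Fmr1-KO. Points lie above the line of equal levels over the whole range, from Orc1 at 0.691 RPKM to Pcna at 35.7 RPKM in WT, with Orc6 closest to it.

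Beyond the members, 53 other genes of replication, its supply of nucleotides and its chromatin were examined, and all 53 were tested. Of these, 43 were called higher and 1 lower, with a median of 0.28. The largest increases were of Pclaf, a PCNA-binding protein (0.89), Top2a, the topoisomerase that untangles sister DNA (0.86), and Mms22l, which acts at stalled forks (0.84). Above a 1.2-fold difference, 21 were called higher and 0 lower.

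Genes before and after S phase moved too. Of 10 cyclins and kinases of G1 and S phase, 8 were called higher, led by Ccnd2 (0.87), a D-type cyclin of cortical progenitors, with Cdk4 at 0.29. Ccnd1, another D-type cyclin, was called lower at -0.39 and is named because of that. In the E2F and retinoblastoma family 8 of 13 were called higher. These were E2f7 (0.85), Rbl1 (0.72), E2f8 (0.66), E2f1 (0.65), E2f2 (0.58), Tfdp2 (0.25), E2f6 (0.23) and Rb1 (0.20). The 5 that were not called were E2f3, E2f4, E2f5, Rbl2 and Tfdp1, the last at -0.02. The mitosis list rose in 25 of 25 cases with a median of 0.68, including Mki67 at 1.09, the proliferation antigen, and Tpx2 at 0.56, a spindle factor. Its summed level was 687 to 746 CPM in WT and 1154 to 1236 CPM in Fmr1-KO.

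Markers of neural and glial precursors did not move as one. Intermediate progenitor genes, which mark the dividing cells that make cortical neurons, were called higher in 7 of 7 tested (8 listed, median 0.98, summed level 140 to 164 CPM in WT and 285 to 320 CPM in Fmr1-KO), with Insm1 at 0.98 and Btg2 at 0.40. Eomes, their defining transcription factor, was at 9.12, 13.1 and 9.29 CPM in WT and 74.0, 79.97 and 64.4 CPM in Fmr1-KO (log2 fold change 2.79). Radial glia genes were higher in 6 of 12 and lower in 1 (median 0.18, 3598 to 3637 CPM against 3952 to 4029 CPM), with Vim at 0.22 and Slc1a3 at 0.03, the last not called (adjusted P = 0.473). Oligodendrocyte precursor genes were lower in 8 of 8 (median -0.63, 1382 to 1394 CPM against 962 to 989 CPM), with Gpr17 at -0.61 and Bcan at -0.21. The part of any of these cells in the rise of the replication genes was not tested.

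Markers of neurons and of other cell types were read as well. Whether astrocytes, microglia, fibroblasts or vessel cells divided in these cultures was not measured. Neuronal genes, the markers of the labelled cell type, were lower in 11 of 12 (median -0.64, 4722 to 4830 CPM against 4002 to 4201 CPM), with Map2 at -0.11. Dcx, the marker of young neurons, was called higher at 0.08, a call lost when the first or the third WT library or the third Fmr1-KO library was left out (adjusted P = 0.0643, 0.133 and 0.168). Astrocyte genes were lower in 6 of 8 and higher in 1 (median -0.17, 4699 to 4808 CPM against 3989 to 4363 CPM), with Gfap at 2649 CPM in WT after the depletion step. Microglia genes were lower in 6 of 8 (median -0.51) and fibroblast genes in 4 of 6 (median -0.28). Of the endothelial and mural genes 2 were higher and 2 lower of 6 tested (8 listed), and the erythroid genes reached at most 2.46 CPM in sum with 2 of 2 tested lower (6 listed). No gene of these lists was at 0 in every library.

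Sex-linked genes differed between genotypes. Xist, expressed from the inactive X chromosome of females, was at 306 ± 7.34 CPM in WT and 916 ± 96.4 CPM in Fmr1-KO (log2 fold change 1.58), and of 4 Y-linked genes 3 were called lower, Eif2s3y at -0.47. Xist and the 4 Y-linked genes were detected in every library of both genotypes. Of the members only Pola1 is X-linked, and the part of sex in the values of the members was not tested.

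**Figure D5:**
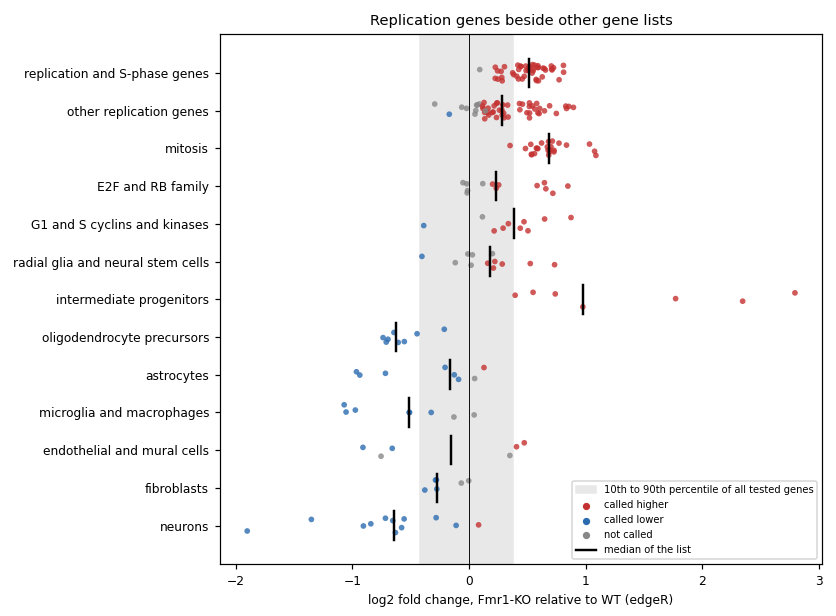
Log2 fold change in Fmr1-KO relative to WT (edgeR) of each tested gene in the replication list and in 12 comparison lists; red was called higher, blue lower and grey not called, black bars are medians, and the grey band is the 10th to 90th percentile of all tested genes (-0.42 to 0.38). The replication genes (median 0.51), mitosis genes (0.68) and intermediate progenitor genes (0.98) lie to the right of 0, and the oligodendrocyte precursor (-0.63) and neuronal genes (-0.64) to the left.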

How the data were processed

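The authors deposited raw read counts per gene name. Per the study's methods, single-end reads from stranded poly(A) libraries were trimmed with FastP, mapped to GRCm38.p6 with STAR and counted over exons with featureCounts in reverse-stranded mode, so antisense neighbours were kept apart, while reads shared by near-identical copies were not resolved. Genotype and replicate number came from the labels. The members and gene lists were chosen with earlier results of these data known.

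Counts of the whole table, 16976 genes after filterByExpr, were tested in 1 fit with edgeR 4.0.16 (R 4.3.3): TMM, glmQLFit and glmQLFTest, 2-sided, genotype alone, Benjamini-Hochberg adjustment over all tested genes and a threshold of 0.05. SE is the log2 fold change divided by the square root of F. glmTreat gave the test against a fold change of 1.2. CPM are TMM-scaled, and RPKM divide them by exon length in GENCODE M21. That length counts each base of any annotated exon of a gene once, whichever transcripts are expressed. Ratios of 1 gene to another per kilobase of exon used the same lengths. On simulated counts of 16843 genes, 99% of 200 genes changed by 1 log2 unit were called. Smaller changes, such as those of all members, were not simulated. Promoter windows came from RefSeq on GRCm38.p6. Total counts of 30348556 to 35126207 per library put 64 or more counts behind every member. Alternatives were DESeq2 1.42.0, RLE, upper-quartile and unscaled library totals, TMM less the 20 most abundant genes, no filter, a filter at a mean of 10 counts with 5 CPM, the replicate number as a block, and each library left out. Named are all members, with CPM per library for the 3 most abundant of each role and the 3 largest changes; relatives of members; the 3 largest changes among other replication genes; up to 2 genes, the most abundant, of a comparison list; and Fmr1, Eomes and Xist. Orc1 and Orc6 were given per library after their values were seen. Ccnd1 and, beyond Rb1 and Tfdp1, the genes of the E2F and retinoblastoma family were named after theirs were seen.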

Additional observations from a re-analysis of the deposited data

How the results depend on the processing

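The count of 45 members called higher held under DESeq2, all 4 other scalings, no filter, and without any 1 library, and 0 members were called lower in any setting. The stricter filter removed Orc1 and left 44 of 45. A minimum fold change of 1.2 left 34; Gins4, Rfc1, Rfc2, Rfc4, Pold2, Pold3, Pole2, Prim2, Rpa1, Rpa3 and Dnmt1 lost the call there. These 11 were the only changed calls among 735 recomputed member values. The median log2 fold change of the members was 0.54 with unscaled library totals and 0.49 to 0.54 with 1 library left out. With both second libraries left out, an alternative added after the data were seen, it was 0.54. The minimum fold change left 21 other replication genes higher and 0 lower, and 883 genes higher and 1340 lower in all. Library totals turned Tfdp1 to 0.0081 (adjusted P = 0.871 by edgeR). Of 699 recomputed values of other named genes, 663 kept direction and call, 33 lost a call and 2 gained one. The cause of these shifts was not tested beyond the larger fold asked for and the fewer genes tested.

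Replicate numbers did not pair the samples, with correlations of deviations of -0.029, 0.032 and -0.015. With the replicate number as a block, 45 members were called higher with a median of 0.51, and 3488 genes were higher and 3694 lower in all.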

Other observations

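The pair of cell cycle genes given here, neither of them a member, was chosen after its values were seen. Mki67 was at 71.1, 98.1 and 71.1 CPM in WT and at 140, 212 and 159 CPM in Fmr1-KO, highest in the second library of each, and Rif1, which sets the timing of origin firing, was highest there too. Among the 46 replication genes the second Fmr1-KO library was instead the lowest for 27, and the second WT library was the highest for 18. All 45 calls held with both second libraries left out.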
